A study of Homo sapiens with 6 samples.

Results

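MALAT1, NEAT1, GAS5, SNHG1, H19, HOTAIR, UCA1, PVT1, MEG3 and CCAT1 are 10 long noncoding RNAs (lncRNAs) linked to cancer, and their levels were read in AGS cells with and without knockdown of C1GALT1. Their probes were chosen by name, as every gene probe whose RefSeq accession maps to one of them. This gave 34 probes of 58201 on the array, and 10 genes of the 22439 that could be named. AGS is an established line of human gastric adenocarcinoma, and C1GALT1 encodes the enzyme that extends mucin-type O-glycans on proteins to the core 1 structure. The cells received a nontargeting siRNA (si-Control) or si-C1GALT1-3, a single siRNA against C1GALT1, for 48 h. The 3 samples of either group were read on separate one-colour Agilent arrays. Both groups went through transfection, and no untransfected cells were measured here. Where the 3 samples of a group came from (separate cultures or not) is not given in the sources used here, so the p-values measure only the spread between these samples, which may be technical.

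Long noncoding RNAs are transcripts that are processed much like messenger RNAs but are not translated into a protein of known use. Some build or occupy bodies in the nucleus, some carry small nucleolar RNAs (snoRNAs) or a microRNA in their sequence, and some sit at imprinted loci or beside an oncogene. Several are raised or lost in gastric tumours and are studied as markers there. MALAT1 and the long form of NEAT1 end in a triple helix rather than in a usual poly(A) tail, so how cDNA was primed can affect how well they are captured, and the priming is not given in the sources used here.

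No probe of the 10 lncRNAs passed the criterion for a change, which was p under 0.01 and at least 2-fold in limma. Among all 58195 probes tested, 2.64% passed it, 1.65% as higher and 0.991% as lower in si-C1GALT1-3. At an unadjusted p under 0.05, 2 of the 34 probes passed, 1 of PVT1 and 1 of HOTAIR, against 13.8% of all probes. Over the other settings run, this number went from 1 to 8, the 8 being with the slide as a block. The share of all probes at that p was not counted in those settings. NEAT1 had the largest log2 differences, 1.34 and 1.42 on 2 of its 3 probes, which were 0.80 and 0.87 without si-Control 3. With all arrays, these 2 probes passed the criterion once the slide was taken as a block. The other 9 lncRNAs did not pass it in either fit. By the methods' t-test none of the 34 probes passed either, and 1 had an unadjusted p under 0.05. No lncRNA probe had an adjusted p under 0.05, against 0.0842% of all probes in limma and 0.00344% in the methods' t-test.

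The sequences that the deposited files and the reference tables hold for these genes are those around start sites and of the microRNAs carried within. The RefSeq tables (GRCh38.p14) hold a start-site window for 5 of the 10 genes, namely GAS5, H19, MALAT1, MEG3 and SNHG1. The windows of GAS5 and SNHG1 are shown because both genes host snoRNAs that were measured on the same arrays, and the start of the host is also the start of their transcription. Each runs 5′ to 3′ on the minus strand from 250 bases before to 50 bases after the start, at chr1:173868996-173869295 for GAS5 and at chr11:62855836-62856135 for SNHG1.
GAS5: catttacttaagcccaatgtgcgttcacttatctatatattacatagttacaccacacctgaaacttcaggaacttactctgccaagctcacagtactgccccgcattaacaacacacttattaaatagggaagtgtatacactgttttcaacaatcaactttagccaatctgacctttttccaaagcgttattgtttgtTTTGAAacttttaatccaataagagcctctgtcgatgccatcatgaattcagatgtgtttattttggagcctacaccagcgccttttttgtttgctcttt
SNHG1: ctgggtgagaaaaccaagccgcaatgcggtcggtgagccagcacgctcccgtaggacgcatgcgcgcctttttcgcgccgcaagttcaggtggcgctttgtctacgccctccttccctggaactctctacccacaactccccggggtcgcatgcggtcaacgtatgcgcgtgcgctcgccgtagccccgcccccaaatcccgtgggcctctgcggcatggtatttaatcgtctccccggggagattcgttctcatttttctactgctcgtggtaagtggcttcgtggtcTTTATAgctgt
The capitals mark the motif matches found among 4 motifs searched on both strands. In GAS5 they mark TTTGAA, the core of the cell cycle homology region, which begins at -50 from the start. In SNHG1 they mark a TATA box (TATAAA) read on the opposite strand, at 39 bases after the start. TTTGAA was present in 15.2% and TATAAA in 11.5% of 35116 such windows of RefSeq genes. The other 2 motifs, the E-box CACGTG (7.26% of windows) and the core of the interferon-stimulated response element (3.57%), were not found in the windows of the 5 lncRNAs. The windows of MALAT1 (at -30) and of MEG3 (at -18, -28 and -42 for 3 start sites) held a TATA box, and that of H19 held none of the 4. A match is a description of these letters, not a binding site.

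H19 carries a microRNA precursor, and its mature products are shown because the host transcript was measured here while the mature microRNAs were not. They lie on the minus strand at chr11:1996800-1996822 for the 5p arm and chr11:1996768-1996787 for the 3p arm, and the capitals mark the seed, bases 2 to 8.
hsa-miR-675-5p: uGGUGCGGagagggcccacagug
hsa-miR-675-3p: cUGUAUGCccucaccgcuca
The 2 arms have different seeds.

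The arrays limited these comparisons in a few measured ways. The share of gene spots well above background ranged from 66.2% to 72.7% over the arrays, and no gene spot was saturated. On the array of si-Control 2, a central rectangle with 15.9% of the gene spots was dim, with 36.5% of its spots well above background against 71.9% elsewhere on that array, and its spots there were left out. This removed si-Control 2 from 6 lncRNA probes (2 of HOTAIR, 1 of UCA1 and 3 of MEG3), which therefore have 2 si-Control values. The arrays of each replicate number shared a slide, on which si-Control always held column 1 and si-C1GALT1-3 column 2, so position and treatment cannot be told apart. The C1GALT1 probe had a log2 difference of -1.0 (SE 0.31, adjusted p = 0.265), from 12.62 ± 0.40 to 11.62 ± 0.44 (SD, n = 3), and its groups did not overlap although it did not pass the criterion. All 6 epithelial markers were detected. Of 8 markers of other cell types, 6 were above background on at least 1 array, and COL1A2 and ALB on none.

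All 10 lncRNAs were detected. A signal well above background in every array of a group, taken here as detection, was found for 33 of the 34 probes. Of detected probes of all genes, 3.14% passed the criterion. The remaining probe, A_22_P00005221 of MEG3, did not rise above background. The log2 difference, si-C1GALT1-3 minus si-Control, was above 0 for 24 probes and below 0 for 10, with a median of 0.27, beside a median of 0.00 over all probes. The 5th and 95th percentiles over all probes were -0.85 and 0.90. The groups did not overlap for 6 of the 34 probes (17.6%), against 21.5% of all probes. The 95% interval included 0 for 32 of the 34 probes in the fit of groups only. Among the 28 probes with a value on all arrays, 17 were higher in si-C1GALT1-3 on every slide (60.7%), against 22.3% of all such probes, and 3 were lower on every slide (10.7%), against 21.8%. Probes of 1 gene read the same RNA and are not independent of each other.

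**Figure D1:**
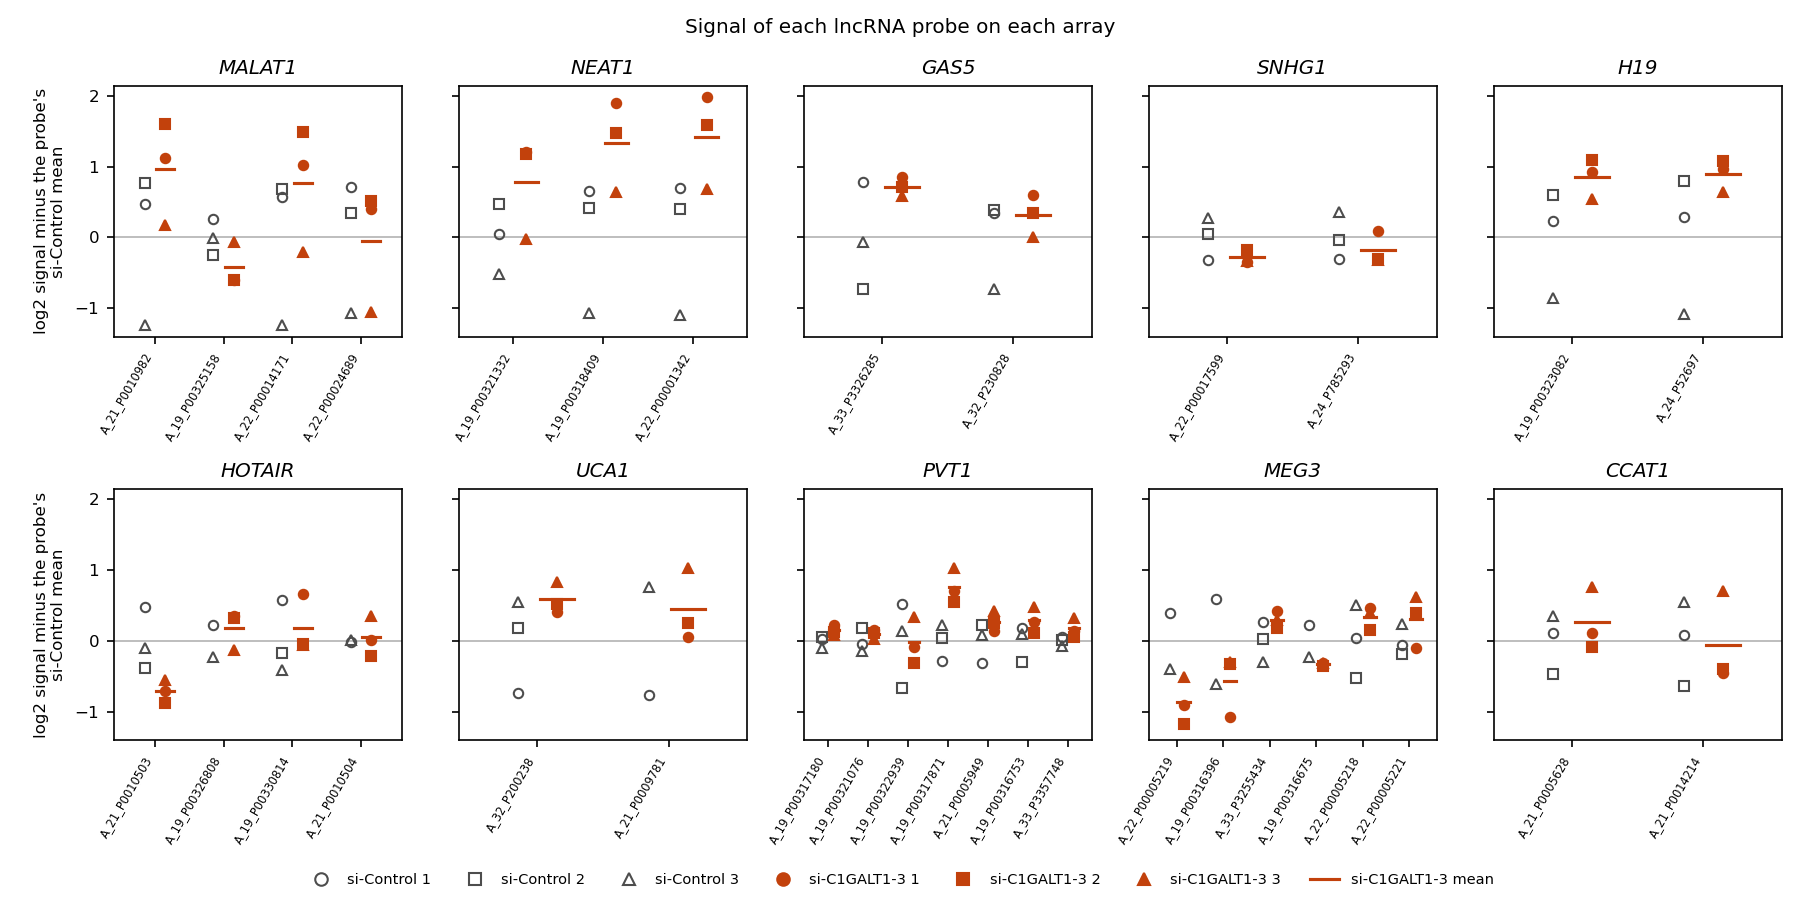
Normalized log2 signal of each lncRNA probe on each array, drawn as the difference from the mean of the si-Control arrays for that probe. Open grey symbols are si-Control arrays, filled red symbols si-C1GALT1-3 arrays, symbol shape gives the slide and red bars the si-C1GALT1-3 mean. The triangles (slide 3) lie lowest in both groups for all NEAT1 and H19 probes and highest in both groups for UCA1 and CCAT1.

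NEAT1 and MALAT1 are neighbouring genes whose RNAs stay in the nucleus. NEAT1 is the scaffold of paraspeckles, and MALAT1 is enriched in nuclear speckles, which store splicing factors. All 3 NEAT1 probes had higher si-C1GALT1-3 than si-Control signal on every slide, while the 4 MALAT1 probes did not share a direction (A_22_P00024689 lay at -0.05 and turned to 0.09 without normalization between arrays).

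On the NEAT1 probe A_22_P00001342, the log2 signal was 12.41, 12.11 and 10.62 in si-Control 1 to 3 and 13.69, 13.30 and 12.40 in si-C1GALT1-3. On A_19_P00318409 it was 12.44, 12.20 and 10.71 against 13.68, 13.25 and 12.43. On both probes 1 si-C1GALT1-3 array, that of slide 3, lay within the si-Control range, so the groups overlapped. The third probe, A_19_P00321332, read 13.84, 14.27 and 13.27 in si-Control and 15.00, 14.97 and 13.77 in si-C1GALT1-3, again with overlap through slide 3. The log2 difference was 1.42 (SE 0.57, 95% interval -0.01 to 2.84, adjusted p = 0.364) for A_22_P00001342, equal to 2.67-fold. It was 1.34 (SE 0.56, -0.04 to 2.72, adjusted p = 0.375) for A_19_P00318409, equal to 2.53-fold, and 0.79 (SE 0.43, adjusted p = 0.488) for A_19_P00321332. None of the 3 passed the criterion when only the groups were fitted, nor an unadjusted p under 0.05 in the main setting. In some other settings the p fell under 0.05, for example to 0.0301 for A_22_P00001342 with 75th percentile normalization (limma). Leaving out 1 array at a time gave 0.87 to 1.78 for A_22_P00001342 and 0.80 to 1.68 for A_19_P00318409, in both with the lowest value, under 2-fold, without si-Control 3.

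Compared within slides, the 3 differences of A_22_P00001342 were 1.28, 1.18 and 1.78, and those of A_19_P00318409 were 1.24, 1.05 and 1.73. With the slide (replicate number) as a block, both probes rose past the criterion, by 1.42 (SE 0.17, adjusted p = 0.18) and 1.34 (SE 0.18, adjusted p = 0.181). In that fit 2.76% of all probes passed, 1.74% as higher, and none reached an adjusted p under 0.05. For A_19_P00321332 the blocked value was 0.79 (SE 0.18, adjusted p = 0.221), under 2-fold. The 75th percentile of processed signal over all gene spots was 1220 and 1330 on the arrays of slide 3. It was 1870 to 1970 on slide 1 and on si-C1GALT1-3 2. On si-Control 2 it was 1160, a value that includes the dim area left out of the comparisons. The part of these signal levels in the slide differences was not tested. A probe with the accession of MIR612, a microRNA gene that lies within NEAT1, gave 9.17, 7.63 and 8.74 in si-Control and 9.89, 9.35 and 9.20 in si-C1GALT1-3. Its groups did not overlap, with the higher values in si-C1GALT1-3, which was so for 11.0% of all probes, and its log2 difference was 0.97 (SE 0.44, adjusted p = 0.408).

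On 3 of the 4 MALAT1 probes the arrays of slide 3 were the lowest of both groups. On A_21_P0010982 the log2 signal was 14.67, 14.97 and 12.96 in si-Control and 15.33, 15.81 and 14.37 in si-C1GALT1-3, and the groups overlapped. The log2 difference of 0.97 had an SE of 0.64 (95% interval -0.62 to 2.55, adjusted p = 0.57). A_22_P00014171 showed the same order of arrays and a log2 difference of 0.76 (SE 0.68), while A_22_P00024689 had -0.05 (SE 0.63) and A_19_P00325158 had -0.42 (SE 0.22). Without si-Control 3, A_21_P0010982 gave 0.35 and A_22_P00014171 gave 0.15, and without si-C1GALT1-3 3 they gave 1.37 and 1.25. Without si-C1GALT1-3 2, A_22_P00014171 gave 0.41. With the slide as a block A_21_P0010982 and A_22_P00014171 had 0.97 (SE 0.20, adjusted p = 0.209) and 0.76 (SE 0.17, adjusted p = 0.216), both under 2-fold. A_19_P00325158 lies within 8 lines or columns of the dim area of si-Control 2.

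Probes of the same lncRNA were also compared with each other. Of the 51 pairs among the lncRNA probes, 2 passed the criterion, 1 of MALAT1 and 1 of MEG3. This share was near that of all 7317 pairs of probes of the same gene, of which 3.32% passed and none had an adjusted p under 0.05. For the MALAT1 pair, within each array, the log2 signal of A_22_P00024689 minus that of A_21_P0010982 was -3.09, -3.75 and -3.16 in si-Control and -4.06, -4.43 and -4.55 in si-C1GALT1-3. The groups did not overlap, and the difference of -1.01 had an SE of 0.24 and an adjusted p of 0.152. For the 3 NEAT1 probes no pair passed, with differences of 0.08 to 0.63.

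Genes of the nuclear bodies were read from lists of proteins. Among 14 paraspeckle proteins none passed the criterion, 11 values were above 0 and the median was 0.08. The largest value was 1.31 (SE 0.49, adjusted p = 0.332) for CIRBP, a cold-inducible RNA-binding protein, and the lowest -0.19 (SE 0.15) for DAZAP1, an RNA-binding protein. The core proteins SFPQ, NONO and PSPC1 had 0.08, 0.53 and 0.30. Among 19 proteins of nuclear speckles and SR splicing factors none passed and the median was 0.17, from -0.35 (SE 0.26) for U2AF1, a splice-site recognition factor, to 0.77 (SE 0.39) for SON, a speckle scaffold protein. FRMD8, which lies beside NEAT1, had 1.27 (SE 0.82).

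**Figure D2:**
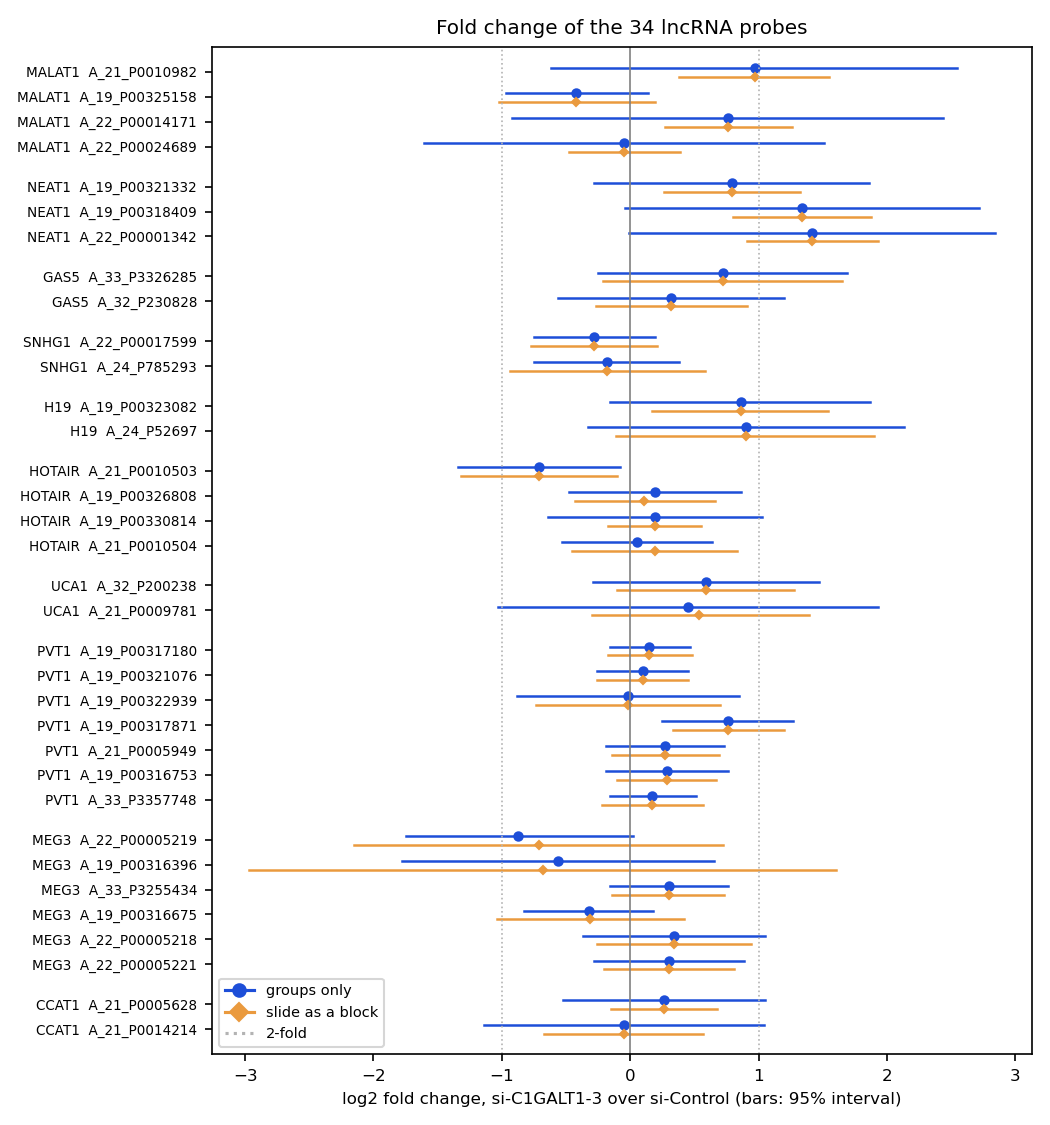
Log2 fold change of the 34 lncRNA probes, si-C1GALT1-3 over si-Control, with 95% intervals. Blue circles are the fit with groups only and orange diamonds the fit with the slide as a block, and dotted lines mark 2-fold. The 2 NEAT1 probes at 1.34 and 1.42 lie past 2-fold in both fits, and their blocked intervals, 0.80 to 1.88 and 0.91 to 1.93, do not reach 0. In all, 8 of the 34 blocked intervals do not reach 0, among them intervals of MALAT1, H19, PVT1 and HOTAIR probes.

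GAS5 and SNHG1 are host genes whose introns are processed into C/D box snoRNAs, which guide methylation of ribosomal RNA. Their spliced transcripts are not translated to a stable protein and are degraded by nonsense-mediated decay when ribosomes read them. GAS5 also belongs to the genes whose transcripts begin with a pyrimidine tract, as those of ribosomal proteins do. Neither host passed the criterion. The 2 GAS5 probes had positive and the 2 SNHG1 probes negative log2 differences, each with an interval that included 0.

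GAS5 signal on A_32_P230828 was 15.91, 15.96 and 14.84 in si-Control and 16.17, 15.92 and 15.57 in si-C1GALT1-3. On A_33_P3326285 it was 16.45, 14.93 and 15.59 against 16.52, 16.37 and 16.25. The groups overlapped on both probes, and the lowest value of each was a si-Control array. The log2 differences were 0.32 (SE 0.36, -0.56 to 1.2, adjusted p = 0.752) and 0.72 (SE 0.39, -0.25 to 1.69, adjusted p = 0.484). A_33_P3326285 lies 2 columns outside the dim area of si-Control 2, and its value was 0.36 with that array left out by a mask widened by 8 lines and columns. It passed the criterion without si-Control 1, at 1.14, where si-Control 2 and 3 are the remaining controls.

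SNHG1 signal on A_22_P00017599 was 12.43, 12.80 and 13.03 in si-Control and 12.41, 12.57 and 12.42 in si-C1GALT1-3. The groups overlapped, with a difference of -0.28 (SE 0.19, -0.75 to 0.19). The other SNHG1 probe, A_24_P785293, had -0.18 (SE 0.23, -0.75 to 0.38). A change of 2-fold in either direction lies outside both intervals.

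The 7 snoRNA genes in the introns of GAS5 that have a probe were SNORD47, SNORD80, SNORD44, SNORD77, SNORD76, SNORD75 and SNORD74. None passed the criterion. All 7 log2 differences were positive, from 0.48 to 1.28 with a median of 0.83, and the groups did not overlap for 5 of them, with si-C1GALT1-3 higher, against 11.0% of all probes and 24.6% of all detected snoRNA genes. SNORD47, for example, read 10.74, 10.60 and 11.32 in si-Control and 11.64, 11.72 and 11.79 in si-C1GALT1-3. Every si-C1GALT1-3 value was above every si-Control value, and the difference was 0.83 (SE 0.22, adjusted p = 0.214). SNORD75 read 8.26, 8.53 and 9.15 against 9.46, 9.73 and 9.35, again without overlap, with a difference of 0.86 (SE 0.26, adjusted p = 0.261). The widest spread was that of SNORD77, with 9.01, 7.27 and 10.09 against 9.99, 9.89 and 10.33. SNORD80 and SNORD76, both among the 5 without overlap, have 2 si-Control values. The slide medians over the 7 genes were 0.90, 1.12 and 0.37.

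The 8 snoRNA genes within SNHG1 had a median of 0.13, from -0.04 to 0.40, and all their groups overlapped. SNORD26 had the largest value at 0.40 (SE 0.27) and SNORD31 and SNORD30 the lowest at -0.04. Across all 228 detected snoRNA genes, 181 values were positive and the median was 0.27, with quartiles of 0.06 and 0.50. Of the 228, 4 rose past the criterion and none fell, beside 1.65% and 0.991% of all probes. The snoRNAs of a host are processed from 1 transcript, so the 7 and the 8 values are not independent of each other, and the difference between the 2 hosts was not tested. Whether a snoRNA probe read the free snoRNA or the unspliced host was not tested.

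**Figure D3:**
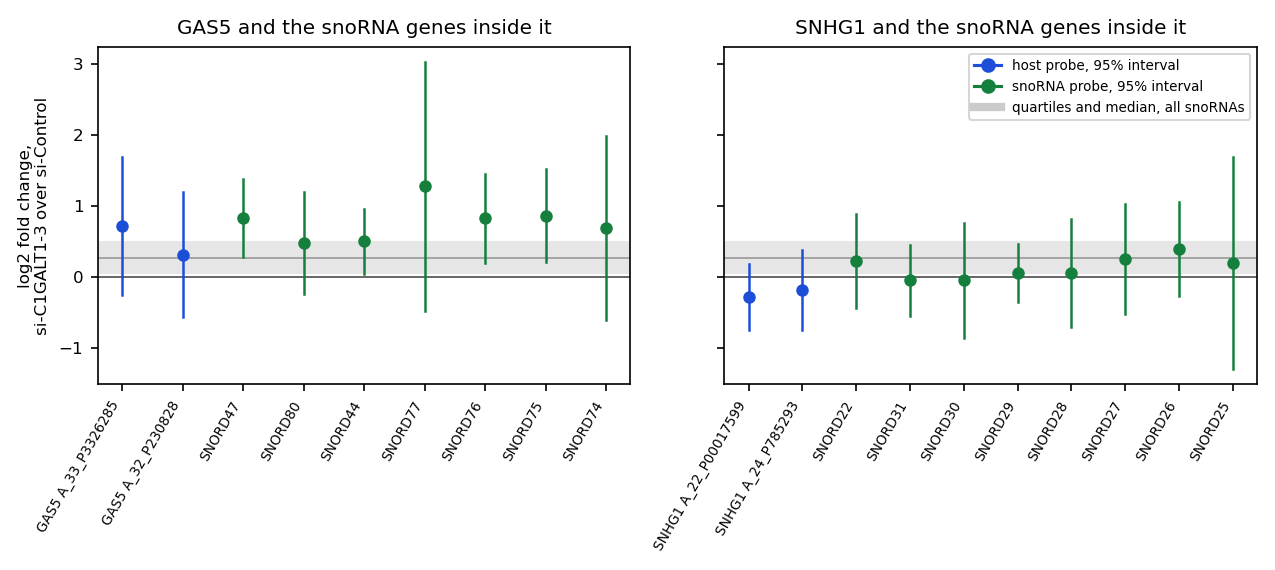
Log2 fold change with 95% interval for the probes of GAS5 and SNHG1 (blue) and of the snoRNA genes inside them (green), si-C1GALT1-3 over si-Control. The grey band spans the quartiles, 0.06 to 0.50, of all 228 detected snoRNA genes, with their median as a line. The snoRNA points of GAS5 lie between 0.48 and 1.28 and those of SNHG1 between -0.04 and 0.40.

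Of 22 other snoRNA host genes with a probe, none passed the criterion, 16 values were positive and the median was 0.15. The groups did not overlap for 7 of them with the higher values in si-C1GALT1-3 (11.0% of all probes) and for none with the lower (10.4% of all probes). The ends were 0.87 (SE 0.19, adjusted p = 0.157) for SNHG20 and -0.23 (SE 0.18) for SNHG17. None of 14 nonsense-mediated decay factors passed, with a median of 0.11, from -0.43 (SE 0.15) for CASC3, a component of the exon junction complex, to 0.64 (SE 0.27) for SMG8, a regulator of the SMG1 kinase. None of 84 ribosomal protein genes passed, with a median of 0.09, from -0.34 for RPS2 to 0.68 for RPL7L1, a gene related to RPL7. ZBTB37, which overlaps GAS5, had 1.56 (SE 1.14), and WDR74 and SLC3A2 beside SNHG1 had 0.04 and -0.36.

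H19 and MEG3 come from imprinted loci and are expressed from the maternal copy. H19 lies near IGF2 and is high in fetal tissue and many tumours, and MEG3 lies near DLK1 and is silenced in many tumours. H19 had positive differences on both probes, and MEG3 differed between its probes.

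H19 signal on A_19_P00323082 was 17.45, 17.81 and 16.35 in si-Control and 18.13, 18.31 and 17.75 in si-C1GALT1-3. On A_24_P52697 it was 16.76, 17.27 and 15.39 against 17.44, 17.55 and 17.12. On both probes 1 si-C1GALT1-3 array, that of slide 3, lay below si-Control 2, and si-Control 3 was the lowest of all arrays. The log2 differences were 0.86 (SE 0.41, -0.16 to 1.87, adjusted p = 0.432) and 0.90 (SE 0.50, -0.33 to 2.13, adjusted p = 0.494), which differed by 0.04 (SE 0.16). Within slides they were 0.68, 0.49 and 1.40 on the former and 0.68, 0.28 and 1.73 on the latter, positive on each slide and largest on slide 3. Leaving out 1 array at a time gave 0.42 to 1.14 and 0.35 to 1.28, with both of the lowest values without si-Control 3. With the slide as a block A_19_P00323082 had 0.86 (SE 0.23, 0.17 to 1.54, adjusted p = 0.245). A_24_P52697 had 0.90 (SE 0.34, -0.11 to 1.9, adjusted p = 0.315), and both were under 2-fold. Of the neighbours, MRPL23 had 0.17 (SE 0.21), and INS-IGF2 was above background on no array.

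The 6 MEG3 probes map to 5 RefSeq accessions of the gene, and 3 of them lie in the dim area, with 2 si-Control values each. On A_22_P00005219 the signal was 12.32 and 11.53 in si-Control 1 and 3, and 11.01, 10.75 and 11.41 in si-C1GALT1-3. The groups did not overlap, which was so with lower si-C1GALT1-3 values for 10.4% of all probes and is easier to reach with 2 si-Control values. The difference was -0.87 (SE 0.34, -1.75 to 0.02, adjusted p = 0.37). The within-slide difference was -1.31 on slide 1 and -0.12 on slide 3, and the value without si-Control 1 was -0.47. With the dim area kept it was 0.53. The other 2 probes of that area had -0.56 (SE 0.47) and -0.32 (SE 0.19). The 2 detected probes outside it had the opposite sign, 0.30 (SE 0.19) for A_33_P3255434 and 0.34 (SE 0.29) for A_22_P00005218.

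The log2 signal of A_33_P3255434 minus that of A_22_P00005219 was -2.62 and -2.38 in si-Control 1 and 3 and -1.15, -1.14 and -1.69 in si-C1GALT1-3. The difference of 1.18 (SE 0.24, adjusted p = 0.144) belonged to the other lncRNA pair past the criterion, on 5 arrays. The accessions of the 2 probes differ, but which exons each probe covers is not given in the sources used here. DLK1, beside MEG3, had -0.09 (SE 0.26), and RTL1 was above background on no array.

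HOTAIR is transcribed from the HOXC cluster and is known for its binding to the PRC2 and LSD1 complexes, which modify histones. On A_21_P0010503 its signal was 12.42, 11.56 and 11.84 in si-Control and 11.24, 11.06 and 11.39 in si-C1GALT1-3. All 3 si-C1GALT1-3 arrays lay below the si-Control arrays, which was so for 10.4% of all probes, and the within-slide differences were -1.19, -0.50 and -0.44. The log2 difference was -0.71 (SE 0.25, -1.34 to -0.08, adjusted p = 0.316), under 2-fold, and it was -0.47 without si-Control 1. The other 3 probes had 0.19, 0.19 and 0.05, each with an interval across 0. Relative to A_21_P0010503, the log2 difference of A_19_P00326808 was higher by 1.09 (SE 0.28, adjusted p = 0.189). That of A_21_P0010504 was higher by 0.96 (SE 0.24, adjusted p = 0.185) and that of A_19_P00330814 by 0.90 (SE 0.27, adjusted p = 0.207). None of the HOTAIR pairs passed the criterion. A_19_P00326808 and A_21_P0010504 each lack 1 si-Control value. The si-Control mean was 11.94 for A_21_P0010503, and 9.64, 6.05 and 6.54 for these 3 probes in that order.

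Among the PRC2 and LSD1 genes, 12 had a probe and none passed the criterion, with a median of -0.02. The ends were 0.94 (SE 0.23, adjusted p = 0.188) for REST, a repressor that recruits LSD1 through its partner RCOR1, and -0.35 (SE 0.17) for RBBP7, a histone-binding subunit. Of the genes around HOTAIR, HOXC11 was above background on no array. HOXC12 had -0.79 (SE 0.68), and HOXC-AS3 had -0.91 (SE 0.34, adjusted p = 0.335). HOXC12 was well above background on 2 arrays of each group. HOXC-AS3 was so on 3 si-Control arrays and 1 si-C1GALT1-3 array.

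PVT1 lies beside MYC and is often amplified with it, and CCAT1 is transcribed from the region on the other side of MYC and was first described in colon cancer. PVT1 had 7 probes, of which 6 had a positive difference and 3 had groups that did not overlap, with the higher values in si-C1GALT1-3, against 11.0% of all probes. On A_19_P00317871 the signal was 10.67, 10.99 and 11.18 in si-Control and 11.65, 11.50 and 11.98 in si-C1GALT1-3. Every si-C1GALT1-3 array lay above every si-Control array. The difference was 0.76 (SE 0.21, 0.25 to 1.27, adjusted p = 0.218), or 1.70-fold, with the smallest p of the 34 probes. It stayed between 0.62 and 0.87 when 1 array at a time was left out.

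The other 6 PVT1 probes had smaller differences, from -0.02 to 0.29. A_19_P00317180 read 12.85, 12.88 and 12.72 in si-Control and 13.05, 12.95 and 12.91 in si-C1GALT1-3, without overlap but with a difference of 0.15 (SE 0.13). A_33_P3357748 read 10.31, 10.27 and 10.18 against 10.39, 10.31 and 10.57, where the lowest si-C1GALT1-3 value equalled the highest si-Control value to 2 decimals, with a difference of 0.17 (SE 0.14). The intervals of these 6 probes ended between 0.45 and 0.85, so a 2-fold rise lies outside each. A_19_P00322939 (-0.88 to 0.85) lies at the edge of the dim area, and its value was -0.35 with the wider mask. None of the 21 pairs of PVT1 probes passed the criterion for unequal change.

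MYC, the oncogene beside PVT1, read 14.01, 14.29 and 14.39 in si-Control and 14.42, 14.60 and 14.78 in si-C1GALT1-3. The groups did not overlap, and the difference was 0.37 (SE 0.17, adjusted p = 0.418). LINC00824, a noncoding gene on the other side of PVT1, read 8.22 and 7.69 in si-Control 1 and 3 and 9.29, 9.03 and 8.86 in si-C1GALT1-3. It rose by 1.1 (SE 0.25, adjusted p = 0.196) and was the neighbour that passed the criterion in the upward direction. Of the 39 neighbouring and overlapping genes with a probe, 31 were detected.

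CCAT1 read 10.96, 10.38 and 11.21 in si-Control and 10.97, 10.76 and 11.62 in si-C1GALT1-3 on A_21_P0005628, with overlap and a difference of 0.26 (SE 0.32, -0.52 to 1.05). On A_21_P0014214 the difference was -0.05 (SE 0.44, -1.14 to 1.04). Both probes were highest on slide 3 in both groups. UCA1, first described in bladder cancer, read 14.82, 15.74 and 16.10 against 15.96, 16.07 and 16.39 on A_32_P200238. The arrays si-C1GALT1-3 1 and 2 lay within the si-Control range, and the lowest array was si-Control 1. The difference was 0.59 (SE 0.36, -0.29 to 1.47, adjusted p = 0.532), with 1.15 on slide 1 and 0.33 and 0.29 on the others, and it was 0.22 without si-Control 1. On A_21_P0009781, with 2 si-Control values, it was 0.45 (SE 0.57). CYP4F2, a fatty acid hydroxylase gene beside UCA1, was well above background on the 3 si-C1GALT1-3 arrays and on no si-Control array (adjusted p = 0.225).

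Other lncRNAs linked to cancer were read for comparison. Of 38 with a probe, none passed the criterion in either direction, 12 values were positive and 26 negative, and the median was -0.11. The highest value was 1.13 (SE 0.36, adjusted p = 0.278) for MIR210HG, the host of a hypoxia-induced microRNA. Its mean log2 signal in si-Control was 5.74, and only 2 arrays of that group rose clearly over background. The lowest value was -1.07 (SE 0.30, adjusted p = 0.234) for AFAP1-AS1, an antisense lncRNA. Among the 6493 probes with a noncoding RefSeq accession, 2.29% passed the criterion, 1.69% as higher and 0.601% as lower, against 3.86% of the 25273 probes with a messenger RNA accession. Only 3896 of the former and 20123 of the latter were detected, so the 2 shares are over sets of unlike detection. The median half-width of the 95% interval was 0.62 over detected probes, so differences of that size or less are mostly not resolved with 3 arrays per group.

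**Figure D4:**
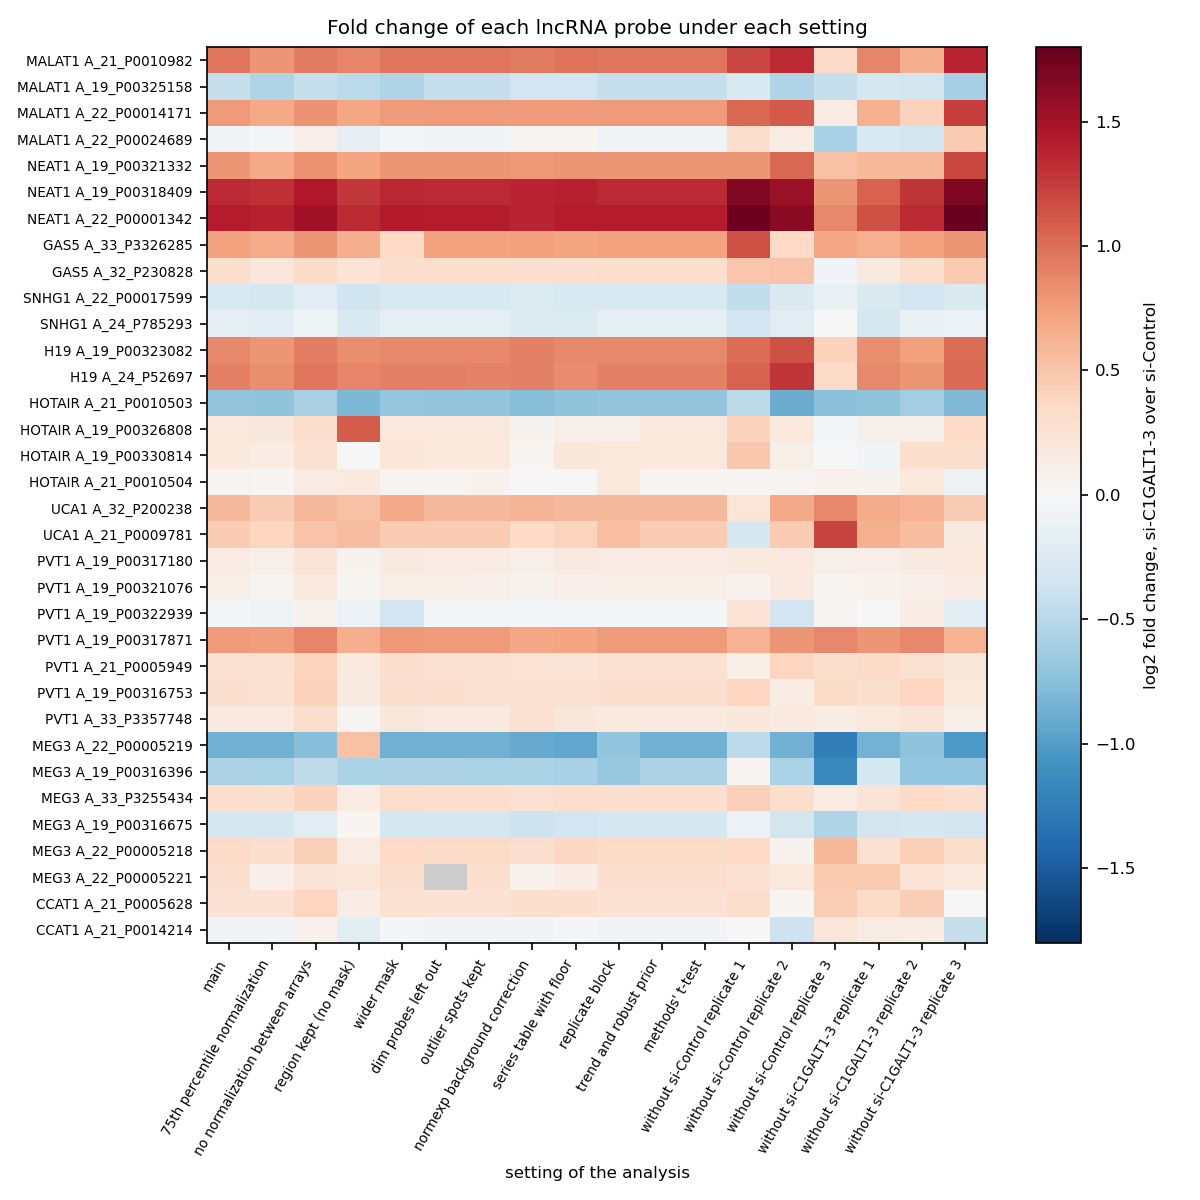
Log2 fold change of each lncRNA probe (rows) under each setting of the analysis (columns), si-C1GALT1-3 over si-Control, red for positive and blue for negative. The NEAT1 rows stay positive in every column, between 0.80 and 1.68 for A_19_P00318409 when 1 array is left out, while A_22_P00005219 of MEG3 turns to 0.53 when the dim area is kept. The grey cell is a probe not tested in that setting.

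The values under other settings are drawn in the map of fold changes by setting. The count of lncRNA probes past the criterion was 0 in every setting run other than the slide block, with the 2 NEAT1 probes, and the fit without si-Control 1, with the GAS5 probe A_33_P3326285. The lowest adjusted p of a lncRNA probe over these settings was 0.135, with normexp background correction.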

How the data were processed

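The authors deposited, for each of the 6 arrays, the fluorescence intensity of every spot as written by Agilent Feature Extraction (version 10.5.1.1, per the submitters' processing notes). The processed intensity used here has had background removed by that program, with no scaling across arrays. A deposited table of the whole series holds background-subtracted intensity of the same spots and was used as an alternative. Log2 values of the processed intensity were taken for 60901 gene spots. Control spots, spots marked as outliers (100 to 424 per array) and the dim area of si-Control 2 were left out. The arrays were then quantile normalized, spots of a probe averaged, and si-C1GALT1-3 compared with si-Control with limma 3.58.1 (lmFit and eBayes) in R 4.3.3, with Benjamini-Hochberg adjustment over all 58195 probes tested. The criterion for a change was 2-fold with p below 0.01.

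RefSeq accessions printed on the array were matched to gene symbols of GRCh38.p14, which named 31104 of 58201 probes. The files name another build, so coordinates are given only with printed RefSeq sequences. Lists and neighbours use, for each gene, its probe of highest mean signal. Named are all probes of the 10 lncRNAs, C1GALT1, the nearest and overlapping genes (some of which are not reported here), and the highest and lowest value of each list. SFPQ, NONO and PSPC1 and the single snoRNAs given with values were chosen after their values were seen. The lncRNAs and lists were chosen with earlier results of these data known.

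Same-numbered arrays share a slide, and their deviations from the group means correlated at 0.198, 0.215 and 0.329 over 48794 probes, against 0.0103 or less for other pairs. The slide was therefore also fitted as a block. Pairs of probes of a gene were compared by limma on their within-array log2 differences, which was chosen after seeing the data, as were the groups of snoRNAs within GAS5 and SNHG1. The alternatives run were other normalizations, the dim area kept or masked with a margin of 8, a filter on dim probes, and outlier spots kept. Others were normexp (offset 50), the series table floored at 10, the slide block, and a trend and robust prior. The last were Student's t-test, the median over probes, and leaving out each array. The number of arrays limits the precision.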

Additional observations from a re-analysis of the deposited data

How the results depend on the processing

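The count of changed probes was 1538. It was 915 with normexp background correction, 896 with Student's t-test and 1126 to 1781 when 1 array was left out. Probes with an adjusted p under 0.05 numbered 49, and the smallest adjusted p was 0.0499. They numbered 545 with dim probes left out and 429 with normexp. The number was 0 with the slide block, without normalization, with the dim area kept and with outlier spots kept. It was also 0 with the trend and robust prior and whenever 1 array was left out. The share of higher among changed probes was 62.5%, 72.6% without normalization and 40.2% with the dim area kept. The 75th percentile moved the median of all probes by -0.11. Changed lncRNA probes numbered 2 with the replicate block (slide), which changed no other lncRNA call, and 0 to 1 with 1 array left out, the 1 being A_33_P3326285 of GAS5 without si-Control 1 (1.14). The C1GALT1 probe, at -1.0, passed the criterion with dim probes left out, at the same value.

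Some log2 differences near 0 changed sign. The MALAT1 probe A_22_P00024689 gave 0.09 without normalization, 0.03 with normexp and 0.03 in the series table. Without normalization, PVT1 A_19_P00322939 gave 0.07 and CCAT1 A_21_P0014214 gave 0.08. In the series table HOTAIR A_21_P0010504 gave -0.01. With the dim area kept, MEG3 A_22_P00005219 gave 0.53, MEG3 A_19_P00316675 gave 0.04 and HOTAIR A_19_P00330814 gave -0.01. With 1 array left out the values spanned -0.58 to 0.45 for MALAT1 A_22_P00024689, -0.35 to 0.24 for PVT1 A_19_P00322939, -0.42 to 0.22 for CCAT1 A_21_P0014214, -1.16 to 0.04 for MEG3 A_19_P00316396, -0.32 to 1.21 for UCA1 A_21_P0009781 and -0.05 to 0.51 for GAS5 A_32_P230828. For HOTAIR they spanned -0.04 to 0.42 (A_19_P00326808), -0.05 to 0.49 (A_19_P00330814) and -0.10 to 0.19 (A_21_P0010504).

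Some list medians moved by more than their spread over slides. The other lncRNAs gave -0.18 with the 75th percentile, -0.06 without normalization, -0.22 with the dim area kept, -0.08 with the median over probes and -0.18 to -0.04 with 1 array left out. Ribosomal protein genes gave 0.04 with the 75th percentile, 0.17 without normalization and 0.04 to 0.14 with 1 array left out. Decay factors gave 0.23 without normalization and -0.02 to 0.18 with 1 array left out. PRC2 and LSD1 genes gave 0.08 without normalization, 0.12 with the dim area kept and -0.08 to 0.07 with 1 array left out. SnoRNA hosts gave 0.02 with the dim area kept, and neighbours 0.10 with normexp and 0.10 to 0.36 with 1 array left out. The snoRNAs within SNHG1 spanned -0.09 to 0.39 and those within GAS5 0.62 to 1.04 with 1 array left out. The cause was not tested. The naming of probes by a gene name column was not run. With 2 arrays in a group, the spread was pooled over both groups.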
